A study of Mus musculus with 16 samples.

Results

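The miR-344 family of the mouse was followed across cultured forebrain neurons that had received different short hairpin RNAs. The family comprises every miRNA in the count table whose name starts with miR-344, whichever arm of the precursor it comes from. That gave 19 names of 1978, of which 8 had enough counts to be tested among 483 tested miRNAs. The family was picked because miR-344d-3-5p and miR-344e-3p were higher with the hairpin carrying 5 point mutations, so the values with that hairpin are given as a description, with no test. The reference group of that pick was not stated and was taken to be the empty vector. On that reading, the tests against the empty vector share its libraries with the pick.

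All cells were primary neuronal cultures from perinatal mouse forebrain, and all of them were transduced with a lentiviral vector. The groups were shRNA_5bp, the hairpin with 5 point mutations, shRNA_2bp, the same hairpin with 2 point mutations, shRNA, the unmutated hairpin, and Empty_Vector, the lentivirus without a hairpin. Each group had 4 libraries of small RNA. The labels used here name neither the target of the hairpin nor the positions of its mutations, and give no mouse strain, age in days, culture or animal for a library.

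A miRNA gene is transcribed into a longer RNA in which a hairpin is cut out by Drosha and then opened by Dicer, leaving a 5p and a 3p strand. One of these is usually kept in an Argonaute protein, and the bases next to its 5′ end, the seed, choose most of the messenger RNAs it binds. A short hairpin RNA expressed from a vector is processed by Dicer and loaded into the same Argonaute proteins. MiR-344 was first cloned from rat neurons, and the mouse genes form a cluster beside the imprinted genes Ndn and Magel2, which are expressed from the paternal chromosome.

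The mature sequences of the 8 tested names are shown because the shared seeds and the small differences between the strands decide which names can be told apart. They are RefSeq sequences on GRCm38.p6, written 5′ to 3′, with the seed (bases 2 to 8) in capitals. Each was found on the minus strand of chromosome 7.
miR-344d-3-5p: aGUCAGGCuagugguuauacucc
miR-344d-3p: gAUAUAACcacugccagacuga
miR-344e-3p: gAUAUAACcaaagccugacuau
miR-344h-3p: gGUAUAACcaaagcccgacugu
miR-344b-3p: cAUUUAGCcaaagccugacugu
miR-344c-3p: uGAUCUAGucaaagccugacagu
miR-344-3p: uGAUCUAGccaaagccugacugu
miR-344f-3p: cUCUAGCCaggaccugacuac

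MiR-344d-3p and miR-344e-3p share the seed AUAUAAC, and miR-344c-3p and miR-344-3p share GAUCUAG. The other 3p names each had a seed of their own. On the 5p side, 6 of the 10 names share GUCAGGC, among them miR-344d-3-5p. Counting positions from 1 at the 5′ end, miR-344c-3p differs from miR-344-3p by U9C and A21U, and miR-344e-3p differs from miR-344h-3p by A2G, U16C and A21G. The seed AUAUAAC was found in 1 of 1660 other mature mouse miRNAs, miR-410-3p, a miRNA of the imprinted Dlk1-Dio3 cluster on chromosome 12 (chr12:109743764-109743784, plus strand, GRCm38.p6), with the sequence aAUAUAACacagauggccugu.

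The 19 names came from 13 hairpin genes, all on the minus strand within 402 kb of chromosome 7 (chr7:61683124-62085310, GRCm38.p6). The d, e and h genes, 6 in all, lie together within 59.3 kb (chr7:61683124-61742425). Mir344, Mir344-2 and the b, c, g, f and i genes lie within the other 295 kb (chr7:61790519-62085310). In GENCODE M21 on the same build, Mir344, Mir344b, Mir344c, Mir344d-3, Mir344e and both Mir344h genes lie in introns of the long noncoding RNA A230057D06Rik, and Mir344-2 lies in an intron of A330076H08Rik, all on the same strand. Mir344g overlaps an exon of A330076H08Rik, and Mir344d-1, Mir344d-2, Mir344f and Mir344i overlap no annotated host. The protein-coding genes nearest to the cluster were Ndn (chr7:62346569-62350262), Magel2, Mkrn3 and Peg12.

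The number of genes behind a name differed. MiR-344d-3p can come from 3 genes (Mir344d-1, Mir344d-2 and Mir344d-3), miR-344-3p from 2 and miR-344h-3p from 2. MiR-344d-3-5p comes from Mir344d-3 alone, since the 5p strands of the other d genes differ from it. A stretch of 20 bases of miR-344d-3p also occurs in the annotated miRNA genes Gm23490 and Gm23962 and in a transcript of A230057D06Rik, so its counts may hold reads of those RNAs too. The hairpins of Mir344d-3, Mir344e and Mir344f are shown with both mature strands in capitals, the 5p strand first, because they gave the names the family was picked for and the strand with the largest fall.
Mir344d-3: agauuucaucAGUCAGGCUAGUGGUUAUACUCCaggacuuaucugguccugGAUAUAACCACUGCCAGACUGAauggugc
Mir344e: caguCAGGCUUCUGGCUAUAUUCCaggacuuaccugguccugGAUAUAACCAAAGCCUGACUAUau
Mir344f: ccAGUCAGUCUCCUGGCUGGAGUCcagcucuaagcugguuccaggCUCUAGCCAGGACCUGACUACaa
The first lies at chr7:61726249-61726328, the second at chr7:61735537-61735602 and the third at chr7:62046181-62046248, all on the minus strand.

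Library totals were 0.832 to 2.50 M counts with shRNA_5bp, 1.18 to 2.10 M with shRNA_2bp, 5.30 to 8.06 M with shRNA and 2.76 to 11.1 M with Empty_Vector. Depth therefore differed along with the group, and a count of 3 stood for 1.20 to 3.61 counts per 1 M counts of a library (CPM) with shRNA_5bp, against 0.269 to 1.09 CPM with Empty_Vector. The 4 neuronal markers listed summed to 333884 to 366390 CPM with shRNA_5bp, 339733 to 351436 with shRNA_2bp, 395393 to 413416 with shRNA and 447900 to 463306 with Empty_Vector. MiR-128-3p made up most of this sum, averaging 260316, 247313, 330913 and 387153 CPM in this order of groups. MiR-9-5p (87890, 97978, 70837 and 64499 CPM) and miR-124-3p (1932, 2141, 2254 and 1506 CPM) were instead lowest with Empty_Vector. MiR-138-5p was lowest with shRNA_2bp (110 CPM). Summed markers of vessels and fibroblasts (7 names) were 1260 to 1410 CPM with shRNA_5bp, 1191 to 1410 with shRNA_2bp, 647 to 791 with shRNA and 643 to 749 with Empty_Vector. Those of astroglia (2 names) were 2105 to 2369, 3462 to 3745, 1936 to 2258 and 1581 to 1764 CPM in the same order of groups, and those of erythroid cells (3 names) 220.0 to 252, 230 to 247, 177 to 193 and 178 to 193 CPM. Oligodendrocyte markers (3 names) summed to at most 14.4 CPM in any library. The 5 microglial and leukocyte markers summed to 70.9 to 90.3 CPM with shRNA_5bp, 88.8 to 110 CPM with shRNA_2bp, 75.3 to 105 CPM with shRNA and 45.1 to 57.0 CPM with Empty_Vector, and of these miR-142a-3p and miR-223-3p had no count in any library. The labelled neurons thus carried high neuronal markers in every group. The erythroid sum was nearly all miR-486a-5p, while miR-144-3p had no count and miR-451a averaged at most 1.40 CPM in any group. Most of the microglial sum was miR-146a-5p, and most of the vessel sum was miR-126a-3p. The microglial and astroglial sums lay above Empty_Vector without overlap in all 3 hairpin groups, and the vessel and erythroid sums did so with both mutated hairpins. Their part in the results was not tested, including the rises with shRNA over Empty_Vector. In such bulk RNA, fewer cells of a type and less RNA per cell cannot be told apart.

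The family took up a small share of each library. It held 0.221 to 0.293% of all counts with shRNA_5bp, 0.0854 to 0.108% with shRNA_2bp, 0.121 to 0.138% with shRNA and 0.0880 to 0.0992% with Empty_Vector. The shRNA_5bp libraries all lay above the shRNA libraries, and these above the Empty_Vector libraries, while shRNA_2bp and Empty_Vector overlapped. The levels that follow are CPM after TMM scaling (trimmed mean of M values), given as the mean ± SD of the 4 libraries of a group. The 8 tested names together reached 2362 ± 326 CPM with shRNA_5bp, 890 ± 91.3 CPM with shRNA_2bp, 1290 ± 97.9 CPM with shRNA and 1029 ± 69.9 CPM with Empty_Vector.

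The strands were far from equally abundant, and 7 of the 8 tested names were 3p strands. MiR-344d-3p and miR-344-3p held 88.4% of the 81636 family counts. With Empty_Vector, miR-344d-3p averaged 592 ± 37.3 CPM and miR-344-3p 328 ± 26.3 CPM, followed by miR-344f-3p at 47.8 ± 4.44 CPM. MiR-344e-3p (19.99 ± 1.05 CPM) and miR-344c-3p (17.5 ± 2.29 CPM) came next and overlapped between libraries, as did miR-344b-3p (11.9 ± 2.65 CPM) and miR-344d-3-5p (9.58 ± 0.917 CPM) below them. MiR-344h-3p was lowest at 1.73 ± 1.30 CPM. The first 2 places were the same in all 4 groups, but with shRNA_5bp the next were miR-344e-3p (85.1 ± 14.5 CPM), miR-344f-3p (76.9 ± 12.4 CPM) and miR-344d-3-5p (59.6 ± 6.35 CPM), each overlapping its neighbour. With shRNA_2bp, miR-344d-3-5p (19.9 ± 2.03 CPM) had a higher mean than miR-344f-3p (14.5 ± 1.16 CPM), without overlap. These strands are all 21 to 23 bases long, so their counts need no correction for length, while unequal capture of different sequences in the library is not corrected. By the mean over all libraries, miR-344d-3p ranked 70th and miR-344h-3p 478th of the 483 tested miRNAs.

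**Figure D1:**
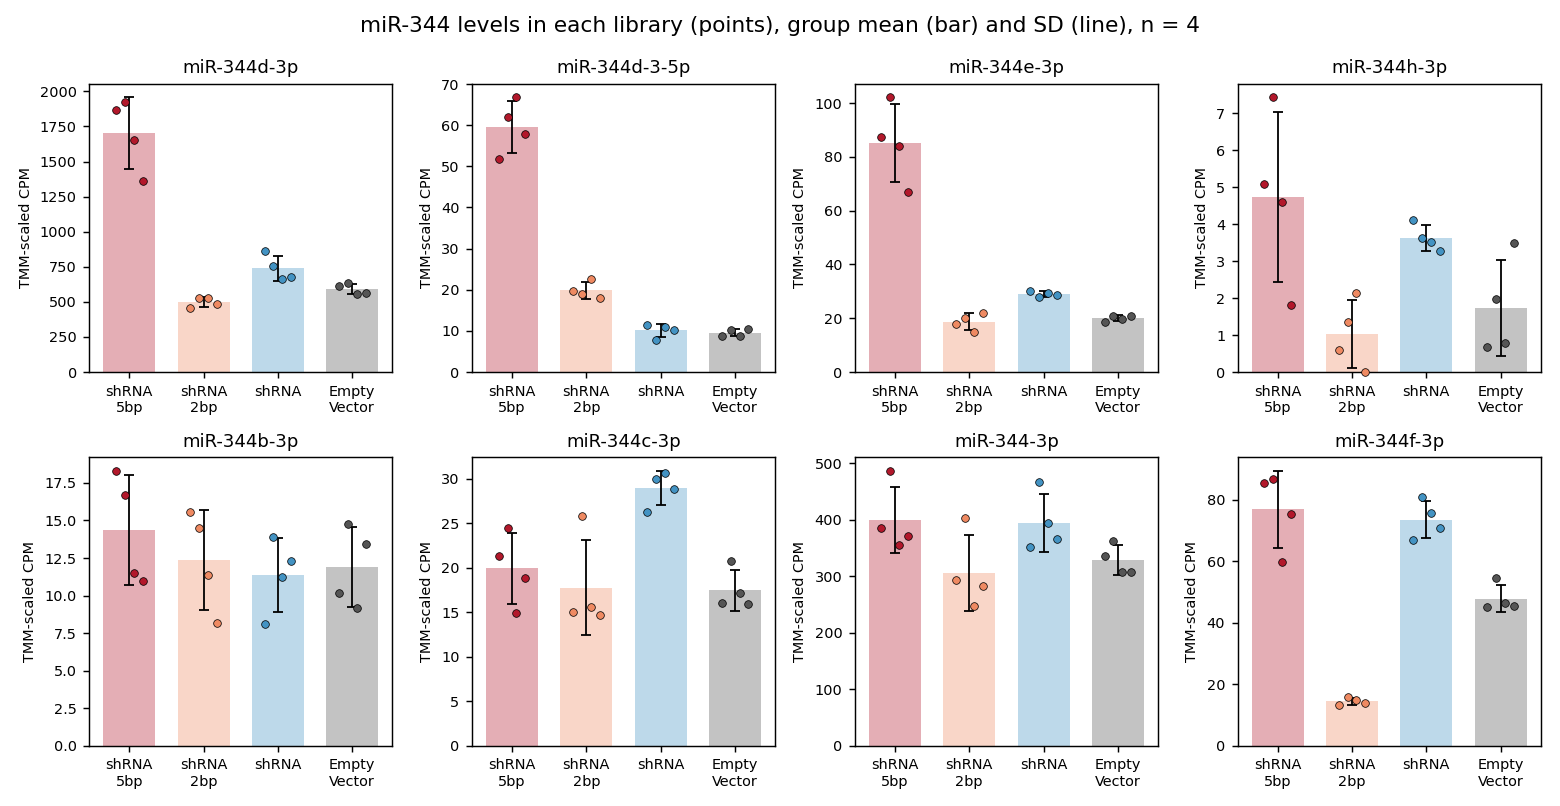
Level of each tested miR-344 name in TMM-scaled CPM (y axes start at 0, with a scale per panel) with shRNA_5bp, shRNA_2bp, shRNA and Empty_Vector; bars are means, error bars SDs and points the 4 libraries of a group. The d and e names stand highest with shRNA_5bp, and miR-344f-3p stands lowest with shRNA_2bp.

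MiR-344d-3-5p, the 5p strand of Mir344d-3, was one of the names the family was picked for. It had 51.8, 62.0, 66.8 and 57.8 CPM in the shRNA_5bp libraries, 19.8, 19.0, 22.7 and 18.01 CPM with shRNA_2bp, 11.4, 7.81, 11.04 and 10.3 CPM with shRNA, and 8.79, 10.3, 8.78 and 10.4 CPM with Empty_Vector. Both mutated hairpins stood above shRNA and Empty_Vector in every library, and shRNA overlapped Empty_Vector. With shRNA_2bp it rose 2.03-fold over Empty_Vector (log2 fold change 1.02 ± 0.18 SE, adjusted p = 1.59e-05, edgeR's quasi-likelihood test with Benjamini-Hochberg adjustment over 483 miRNAs, as for all adjusted p values given). Against shRNA it rose by a log2 fold change of 0.96 ± 0.18 (adjusted p = 3.35e-05). For shRNA against Empty_Vector the log2 fold change was 0.06 ± 0.16 (adjusted p = 0.802). It was the single family name that rose with shRNA_2bp in either comparison. The Empty_Vector libraries also served in picking this name, so its tests against them are not free of that choice.

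MiR-344d-3p, the most abundant strand of the family, had 1865, 1925, 1656 and 1359 CPM with shRNA_5bp, 457, 527, 530 and 485 CPM with shRNA_2bp, 860, 758, 661 and 676 CPM with shRNA, and 614, 633, 557 and 563 CPM with Empty_Vector. None of the 4 groups overlapped, with shRNA_5bp at the top and shRNA_2bp at the bottom. It rose with shRNA over Empty_Vector (log2 fold change 0.32 ± 0.10, adjusted p = 0.0117) and fell with shRNA_2bp against shRNA (-0.56 ± 0.10, adjusted p = 3.82e-05). Its fall with shRNA_2bp against Empty_Vector was smaller (-0.24 ± 0.10, adjusted p = 0.0357), and it was lost when libraries were scaled by their totals alone (-0.06, adjusted p = 0.531). The rise with shRNA was lost without Empty_Vector replicate 4 (0.26, adjusted p = 0.0597). The shared 3p strand of the d genes and the 5p strand of Mir344d-3 thus moved in opposite directions in shRNA_2bp cells relative to shRNA cells.

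MiR-344e-3p, which shares its seed with miR-344d-3p, was the other name the family was picked for. It had 87.4, 102, 84.0 and 66.9 CPM with shRNA_5bp, 17.97, 19.9, 14.9 and 22.1 CPM with shRNA_2bp, 30.3, 27.8, 29.3 and 28.7 CPM with shRNA, and 18.7, 20.9, 19.5 and 20.8 CPM with Empty_Vector. The shRNA_5bp libraries stood apart at the top and the shRNA libraries next, while shRNA_2bp and Empty_Vector overlapped. It rose with shRNA over Empty_Vector (log2 fold change 0.53 ± 0.14, adjusted p = 0.00263) and fell with shRNA_2bp against shRNA (-0.63 ± 0.16, adjusted p = 0.0012). For shRNA_2bp against Empty_Vector the value was -0.10 (adjusted p = 0.593). Both comparisons with Empty_Vector use libraries that also served in picking this name.

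MiR-344h-3p, which differs from miR-344e-3p at 3 bases, 1 of them in the seed, was near the detection limit. Its raw counts were 5, 20, 4 and 3 with shRNA_5bp, 1, 3, 3 and 0 with shRNA_2bp, 32, 19, 20 and 21 with shRNA, and 3, 19, 2 and 36 with Empty_Vector. It passed the filter through 3 shRNA_5bp libraries and 1 shRNA library, so it had to be high in those groups to be tested at all. The other 7 tested names reached the filter's level in all 16 libraries. In CPM it averaged 4.73 ± 2.30 with shRNA_5bp, 1.02 ± 0.92 with shRNA_2bp, 3.63 ± 0.35 with shRNA and 1.73 ± 1.30 with Empty_Vector. The difference between shRNA_2bp and shRNA passed the test (log2 fold change -1.74 ± 0.63, adjusted p = 0.0168), but not without shRNA_2bp replicate 1 (-1.54, adjusted p = 0.0548). For shRNA against Empty_Vector it was 0.80 ± 0.38 (adjusted p = 0.108), and 1.35 (adjusted p = 0.0181) without Empty_Vector replicate 4, the library with 36 counts.

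MiR-344f-3p, from a gene some distance from the d, e and h genes, was the strand with the largest fall in the family. It had 85.3, 86.9, 59.9 and 75.4 CPM with shRNA_5bp, 13.2, 15.8, 14.9 and 13.9 CPM with shRNA_2bp, 67.1, 80.8, 75.5 and 70.8 CPM with shRNA, and 45.1, 54.4, 46.3 and 45.4 CPM with Empty_Vector. The shRNA_2bp libraries lay far below all others, and shRNA_5bp and shRNA overlapped above Empty_Vector. With shRNA_2bp it fell to 0.304 times its level with Empty_Vector (log2 fold change -1.72 ± 0.16, adjusted p = 1.06e-10). It fell further against shRNA (-2.33 ± 0.15, adjusted p = 8.08e-14). With shRNA it rose over Empty_Vector (0.61 ± 0.11, adjusted p = 8.32e-05). The shRNA_2bp and shRNA levels therefore lay on opposite sides of Empty_Vector for this strand.

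MiR-344c-3p and miR-344-3p share a seed and differ at 2 bases. MiR-344c-3p had 21.3, 24.5, 15.0 and 18.9 CPM with shRNA_5bp, 15.0, 25.8, 15.6 and 14.7 CPM with shRNA_2bp, 26.3, 29.9, 30.7 and 28.9 CPM with shRNA, and 16.01, 20.8, 17.2 and 15.9 CPM with Empty_Vector. It was high with shRNA, above every library of the other groups. It rose with shRNA over Empty_Vector (log2 fold change 0.71 ± 0.16, adjusted p = 0.000755) and fell with shRNA_2bp against shRNA (-0.66 ± 0.19, adjusted p = 0.00302).

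MiR-344-3p had 385, 486, 356 and 371 CPM with shRNA_5bp, 293, 403, 247 and 282 CPM with shRNA_2bp, 352, 467.1, 394 and 366 CPM with shRNA, and 335, 363, 307 and 308 CPM with Empty_Vector. Every pair of groups overlapped in at least 1 library. Its level with shRNA_2bp was lower than with shRNA (log2 fold change -0.35 ± 0.13, adjusted p = 0.0282), and this call was lost without shRNA replicate 2 (adjusted p = 0.0613) or without shRNA_2bp replicate 1, 3 or 4 (0.0586 to 0.0856). For shRNA against Empty_Vector the value was 0.26 ± 0.13 (adjusted p = 0.132), with a 95% interval of -0.01 to 0.54. A fit blocked on replicate number gave the same 0.26 with an adjusted p of 0.00196, and some fits without pairing called it too (adjusted p of 0.0220 with library totals alone).

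MiR-344b-3p passed no test. It had 18.3, 16.7, 11.5 and 10.9 CPM with shRNA_5bp, 15.6, 14.5, 11.4 and 8.19 CPM with shRNA_2bp, 8.08, 13.9, 11.2 and 12.3 CPM with shRNA, and 10.1, 14.8, 9.18 and 13.4 CPM with Empty_Vector, and all groups overlapped. Its log2 fold changes were -0.12 ± 0.20 for shRNA against Empty_Vector, 0.05 for shRNA_2bp against Empty_Vector and 0.17 ± 0.24 for shRNA_2bp against shRNA. The 95% intervals ran from -0.54 to 0.29, -0.44 to 0.54 and -0.32 to 0.66 for these comparisons.

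Counted by comparison, 4 of the 8 tested names rose with shRNA over Empty_Vector and none fell by this edgeR test, namely the 3p strands of the c, f, e and d genes. All 4 lay above Empty_Vector without overlap. This count includes miR-344e-3p, which was picked with the same Empty_Vector libraries, so it is not free of that choice. Of all 483 tested miRNAs, 34.8% changed in this comparison, 19.7% rising and 15.1% falling, and 18.2% lay above without overlap. The median log2 fold change was 0.42 over the 8 names and 0.04 over all tested miRNAs. The former includes miR-344h-3p, which had the largest value (0.80) but passed the filter only through shRNA_5bp and shRNA libraries. These counts come from a fit without pairing, and the edgeR fit blocked on replicate number called 5 names, all rising, with miR-344-3p added.

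With shRNA_2bp against Empty_Vector, 1 name rose (miR-344d-3-5p) and 2 fell (miR-344f-3p and miR-344d-3p), against a background of 65.6% changed, 33.3% rising and 32.3% falling. The share of family names that changed was below that background. MiR-344d-3-5p was picked with the same Empty_Vector libraries. The median was -0.10 over the 8 names and 0.01 over all. The remaining log2 fold changes were -0.09 for miR-344-3p (adjusted p = 0.563), 0.06 for miR-344c-3p (0.804), 0.05 for miR-344b-3p (0.870) and -0.94 ± 0.68 for miR-344h-3p (0.227).

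With shRNA_2bp against shRNA, 1 name rose and 6 fell. This comparison holds no shRNA_5bp library. It shares no library with the pick if that was made against Empty_Vector, which was assumed here and not stated. The background was 64.6% changed, 31.1% rising and 33.5% falling. The falling names were miR-344-3p and the 3p strands of the f, h, c, e and d genes, and 5 of these lay below shRNA without overlap, miR-344-3p being the exception. Both counts include miR-344h-3p, which passed the filter only through shRNA_5bp and shRNA libraries, and without it they are 5 and 4 of 7. Over all miRNAs, 30.8% lay below without overlap. The median was -0.60 over the 8 names, with miR-344h-3p included, and -0.01 over all tested miRNAs.

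The values with shRNA_5bp chose the family and are given without a test. Against Empty_Vector the log2 fold changes were 2.61 ± 0.16 for miR-344d-3-5p, 2.09 ± 0.14 for miR-344e-3p and 1.52 ± 0.10 for miR-344d-3p. MiR-344h-3p had 1.26 ± 0.47, miR-344f-3p 0.70 ± 0.12, miR-344-3p 0.29 ± 0.13, miR-344b-3p 0.24 ± 0.24 and miR-344c-3p 0.23 ± 0.19. Of these, miR-344h-3p passed the filter only through shRNA_5bp and shRNA libraries. Every shRNA_5bp library lay above every Empty_Vector library for 4 names, both d strands, miR-344e-3p and miR-344f-3p. Among all tested miRNAs 58.2% passed the threshold in this comparison and 26.9% lay above without overlap, and nothing is read from the family's count.

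Set against the unmutated shRNA, the shRNA_5bp log2 fold changes were 2.54 for miR-344d-3-5p, 1.56 for miR-344e-3p and 1.20 for miR-344d-3p. They were 0.46 for miR-344h-3p, 0.36 for miR-344b-3p, 0.09 for miR-344f-3p, 0.03 for miR-344-3p and -0.49 for miR-344c-3p. Set against shRNA_2bp, they were 2.42 for miR-344f-3p, 2.195 for miR-344h-3p, 2.19 for miR-344e-3p, 1.77 for miR-344d-3p and 1.59 for miR-344d-3-5p, and between 0.17 and 0.38 for miR-344b-3p, miR-344c-3p and miR-344-3p. MiR-344f-3p levels with shRNA_5bp and shRNA therefore overlapped, while its shRNA_2bp level lay below both without overlap. Comparisons that share the shRNA_5bp libraries are not independent of each other.

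**Figure D2:**
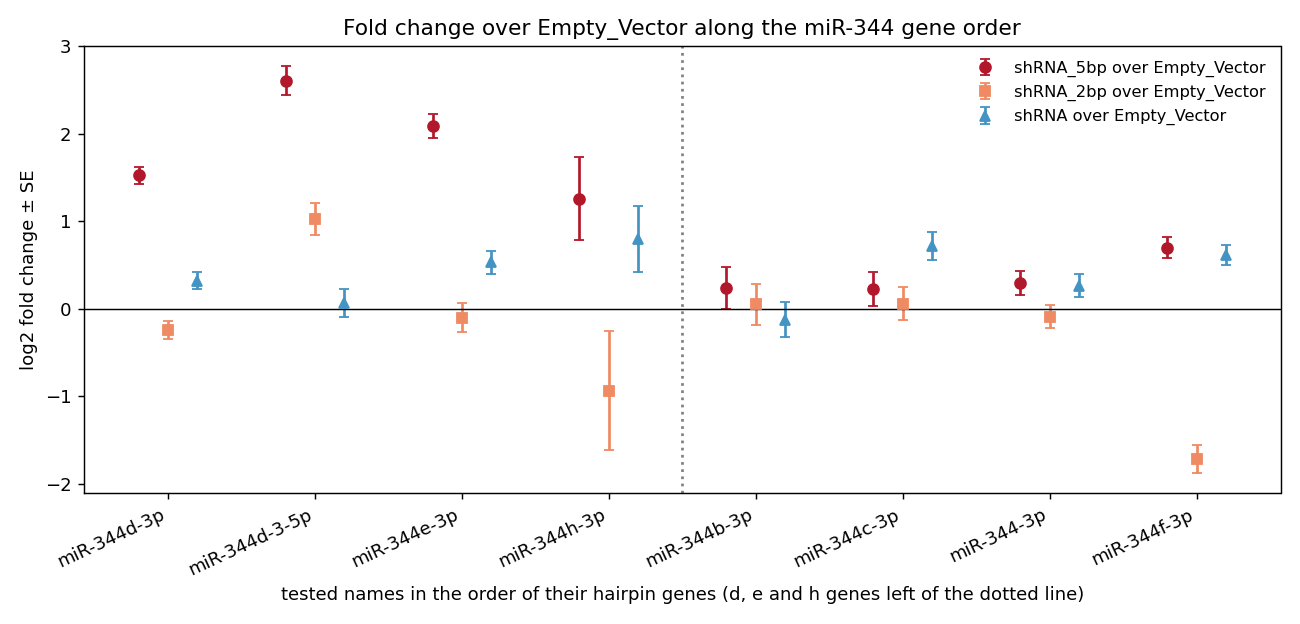
Log2 fold change over Empty_Vector (y axis, bars are ± SE) with shRNA_5bp, shRNA_2bp and shRNA for the 8 tested miR-344 names in the order of their genes (x axis, d, e and h genes left of the dotted line); the shRNA_5bp values are a description, since the family was picked on them. MiR-344d-3-5p lies at 1.02 and miR-344f-3p at -1.72 for shRNA_2bp against Empty_Vector.

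Both strands of the Mir344d-3 hairpin printed above could be set against each other, with the limit that miR-344d-3p has 2 further source genes. MiR-344d-3-5p counts came to 2.78 to 4.25% of miR-344d-3p counts with shRNA_5bp, 3.61 to 4.33% with shRNA_2bp, 1.03 to 1.67% with shRNA and 1.43 to 1.85% with Empty_Vector. The mutated hairpins overlapped each other and lay above both other groups. This percentage does not depend on library scaling. Its shRNA_5bp values are not free of the pick, since miR-344d-3-5p was picked for its rise with that hairpin. Over the whole family, names ending in 5p held 2.66 ± 0.46% of family counts with shRNA_5bp, 2.46 ± 0.45% with shRNA_2bp, 1.05 ± 0.12% with shRNA and 1.13 ± 0.10% with Empty_Vector. Of those 5p counts, 85.8% were miR-344d-3-5p, so this share is not separate from the levels of that strand.

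**Figure D3:**
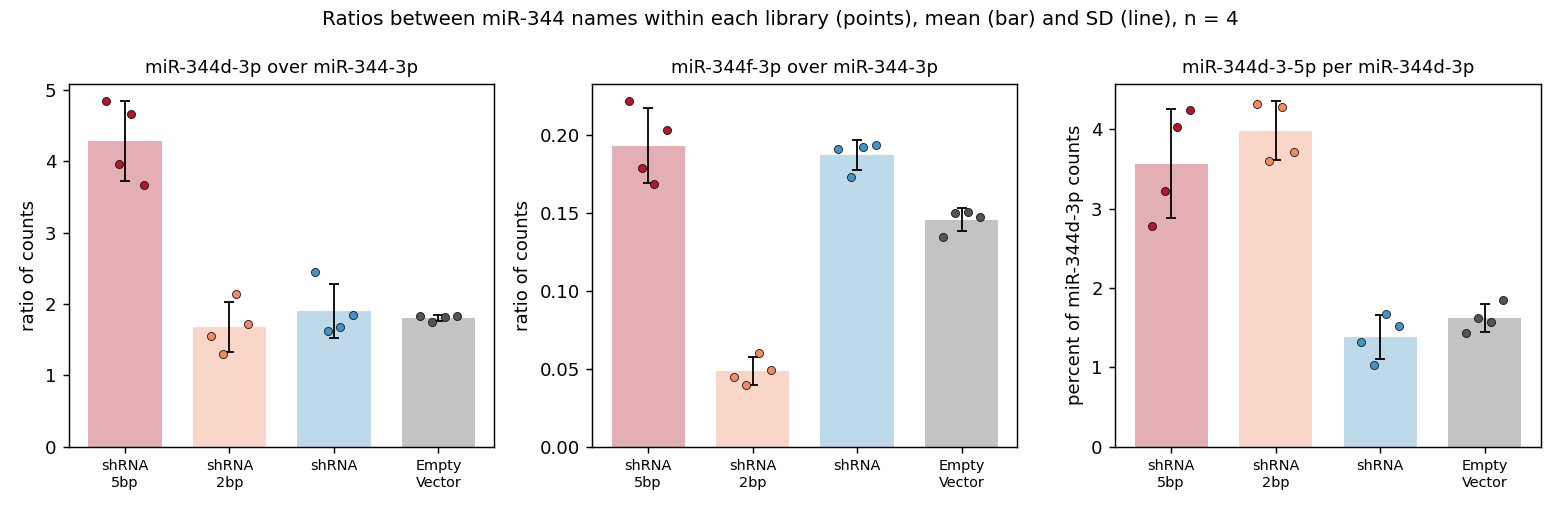
Counts of miR-344d-3p and of miR-344f-3p per miR-344-3p count, and miR-344d-3-5p as percent of miR-344d-3p counts (y axes from 0), in each library with shRNA_5bp, shRNA_2bp, shRNA and Empty_Vector; bars are means, error bars SDs and points the 4 libraries of a group. MiR-344d-3-5p per miR-344d-3p is 2.78 to 4.33% over the libraries of both mutated hairpins and 1.03 to 1.85% over the other libraries. MiR-344d-3-5p was picked for its rise with shRNA_5bp, so the values with that hairpin are a description.

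The make-up of the family was also compared. MiR-344d-3p was 71.9 ± 2.26% of family counts with shRNA_5bp, 56.2 ± 4.45% with shRNA_2bp, 56.9 ± 4.19% with shRNA and 57.4 ± 0.80% with Empty_Vector. The share of miR-344-3p was 17.0 ± 1.71% with shRNA_5bp, 34.1 ± 4.29% with shRNA_2bp, 30.5 ± 3.36% with shRNA and 31.8 ± 0.42% with Empty_Vector. MiR-344f-3p held 3.27 ± 0.49%, 1.62 ± 0.09%, 5.69 ± 0.55% and 4.63 ± 0.25% in the same order of groups. Only shRNA_5bp differed from the other groups in the first 2 shares without overlap, and only shRNA_2bp had so small a share of miR-344f-3p. These are shares of the same total, so a rise of miR-344d-3p lowers the others. With shRNA_5bp, mean levels of miR-344-3p (399 CPM) and miR-344f-3p (76.9 CPM) were above Empty_Vector (328 and 47.8 CPM), although their shares were lower. Per miR-344-3p count, there were 4.28 ± 0.56 counts of miR-344d-3p with shRNA_5bp, 1.68 ± 0.35 with shRNA_2bp, 1.90 ± 0.38 with shRNA and 1.80 ± 0.04 with Empty_Vector. MiR-344f-3p came to 0.193 ± 0.024 counts per miR-344-3p count with shRNA_5bp, 0.0485 ± 0.0089 with shRNA_2bp, 0.187 ± 0.010 with shRNA and 0.146 ± 0.008 with Empty_Vector.

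**Figure D4:**
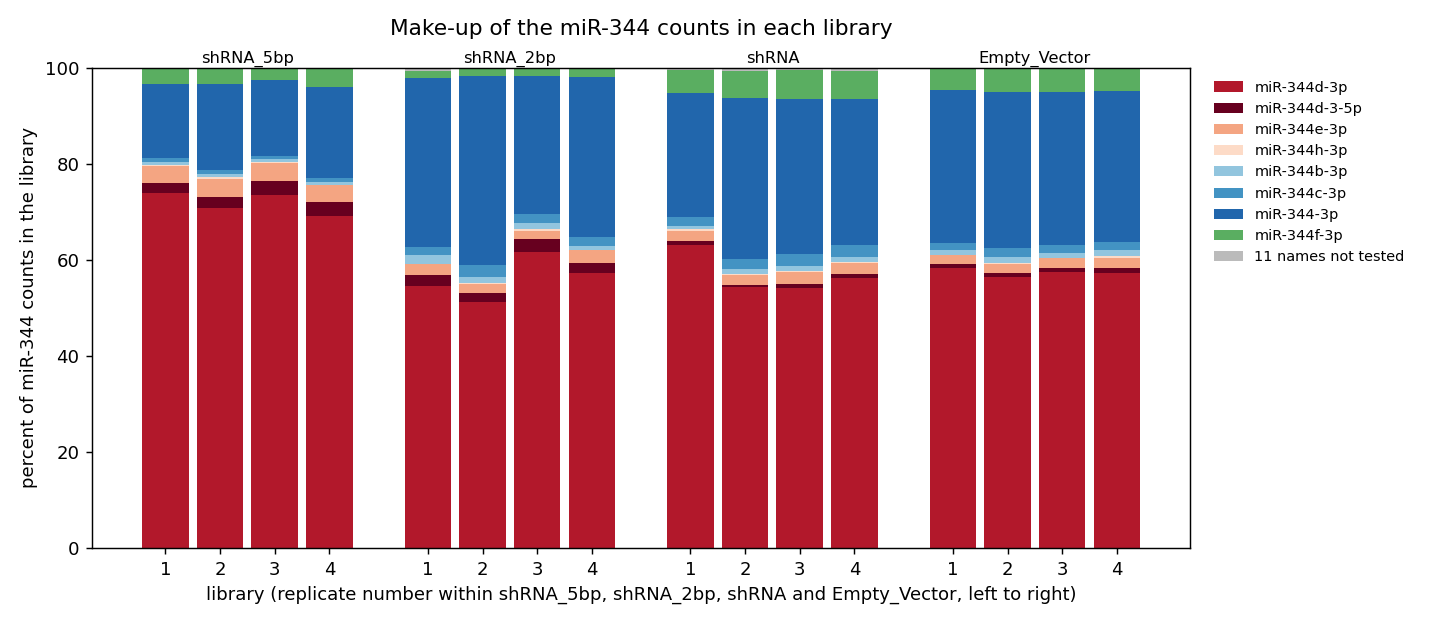
Percent of all miR-344 counts held by each strand (y axis, stacked colours) in each of the 4 libraries with shRNA_5bp, shRNA_2bp, shRNA and Empty_Vector (x axis). MiR-344d-3p averages 71.9% with shRNA_5bp and 56.2 to 57.4% in the other groups.

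The 11 names that were not tested held under 1% of the family's counts. MiR-344g-3p had the most, with 128 counts in all. It had 1, 5, 0 and 0 counts with shRNA_5bp, 0, 2, 0 and 3 with shRNA_2bp, 28, 21, 8 and 29 with shRNA, and 6, 10, 2 and 13 with Empty_Vector. In CPM of the unscaled library total this was 1.39 to 4.76 with shRNA and 0.724 to 1.23 with Empty_Vector, so these groups did not overlap. It was 0 to 2.00 with shRNA_5bp and 0 to 2.55 with shRNA_2bp, overlapping both other groups. MiR-344f-5p had 5 counts with shRNA_5bp, 1 with shRNA_2bp, 27 with shRNA and 15 with Empty_Vector over the 4 libraries, and miR-344-5p had 6, 8, 18 and 17 in that order. MiR-344d-1-5p, miR-344d-2-5p, miR-344c-5p, miR-344i and miR-344g-5p had 25 counts or fewer in all libraries together. MiR-344e-5p and miR-344h-5p have the same mature sequence and the same 14 counts, so they are 1 measurement under 2 names. MiR-344b-5p had no count, which allows up to 3.61 CPM in the shallowest library and 0.269 CPM in the deepest.

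MiR-410-3p, with the same seed as miR-344d-3p and miR-344e-3p but from chromosome 12, averaged 362 ± 20.2 CPM with shRNA_5bp, 125 ± 12.7 CPM with shRNA_2bp, 289 ± 15.8 CPM with shRNA and 293 ± 19.8 CPM with Empty_Vector. It fell with shRNA_2bp against Empty_Vector (log2 fold change -1.22 ± 0.08, adjusted p = 2.68e-13) and against shRNA (-1.20, adjusted p = 3.83e-13), and for shRNA against Empty_Vector it was at -0.02 (adjusted p = 0.868).

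Of 7 other miRNA names within 5 Mb of the cluster, only miR-211-5p, from an intron of the ion channel gene Trpm1, was tested. It averaged 25.02 CPM with shRNA_5bp, 25.8 CPM with shRNA_2bp, 17.0 CPM with shRNA and 14.7 CPM with Empty_Vector. It rose with shRNA_2bp against Empty_Vector (log2 fold change 0.82 ± 0.21, adjusted p = 0.00105) and against shRNA (0.57, adjusted p = 0.0151), and with shRNA against Empty_Vector it was at 0.25 (adjusted p = 0.324). This neighbour rose with shRNA_2bp in both comparisons, in which miR-344f-3p and miR-344d-3p fell. The cause of this difference was not tested.

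Another multicopy rodent group, made up of names starting with miR-297, miR-466, miR-467 or miR-669, had 80 names of which 5 were tested. Among these, miR-467a-5p and miR-467b-5p had the same mean in every group, so they may be 1 measurement under 2 names. None of the 5 passed the edgeR test with shRNA over Empty_Vector (median -0.28), where 34.8% of all tested miRNAs changed. With shRNA_2bp, 1 rose against Empty_Vector (median 0.12), where 33.3% of all rose, and against shRNA (median 0.43), where 31.1% rose. That 1 was miR-466i-5p, at 47.3 CPM with shRNA_5bp, 46.2 CPM with shRNA_2bp, 8.57 CPM with shRNA and 7.23 CPM with Empty_Vector (log2 fold change 2.80 ± 0.28 for shRNA_2bp against Empty_Vector, adjusted p = 9.55e-09). The most abundant of the rest, miR-669c-5p, was at 0.07 in that comparison (adjusted p = 0.725). Nothing is read from the counts of so few names.

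Names with no arm suffix, which may include fragments of other small RNAs (this was not checked), were counted as well. They held 0.583 to 0.893% of counts with shRNA_5bp, 0.524 to 0.576% with shRNA_2bp, 0.305 to 0.331% with shRNA and 0.245 to 0.268% with Empty_Vector. Of the 47 tested among 322 such names, 30 rose and 4 fell with shRNA_2bp against Empty_Vector, where 33.3% of all tested miRNAs rose and 32.3% fell. Against shRNA, 25 rose and 4 fell (31.1% and 33.5% of all), and with shRNA against Empty_Vector 5 rose and 1 fell (19.7% and 15.1% of all). The most abundant, let-7j and miR-5099, had log2 fold changes of 0.61 ± 0.06 (adjusted p = 7.92e-10) and 1.83 ± 0.16 (adjusted p = 1.12e-07) with shRNA_2bp against Empty_Vector. MiR-344d-3-5p was higher in the same groups as these names, and their part in its rise was not tested.

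The miRNAs whose profiles over the 16 libraries lay closest to those of miR-344d-3-5p and miR-344e-3p were found by the root mean square difference of centred log2 CPM. For miR-344d-3-5p they were miR-3535 (0.43), miR-3068-3p (0.48) and miR-5126 (0.49), against a median of 1.14 over 475 miRNAs outside the family. MiR-3535 averaged 114 CPM with shRNA_5bp, 38.1 CPM with shRNA_2bp, 24.9 CPM with shRNA and 18.6 CPM with Empty_Vector. For miR-344e-3p they were miR-149-5p (0.32), miR-3068-3p (0.43) and miR-377-5p (0.50), against a median of 0.99. MiR-149-5p averaged 2594 CPM with shRNA_5bp, 881 CPM with shRNA_2bp, 1205 CPM with shRNA and 1047 CPM with Empty_Vector, so it too was highest with shRNA_5bp. Its mean was lowest with shRNA_2bp, as was that of miR-344e-3p (18.7 CPM), whose libraries there overlapped Empty_Vector. These distances describe likeness over libraries of the same 4 groups and carry no test.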

How the data were processed

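Small RNA of cultured, transduced mouse forebrain neurons was sequenced in 16 libraries, with 4 in each of 4 groups. The authors deposited raw read counts per mature miRNA, as whole numbers, in 1 table whose columns all match a sample. Per the submitters' processing notes, bcl2fastq 2.20.0.422, Trim Galore 0.6.0, cutadapt 1.15, Bowtie 1.1.1, edgeR and the build GRCm38.p6 were used. How reads matching several names were assigned is not given in the sources used here, and names with near-identical sequence may share reads. No molecular identifiers are mentioned, so detection limits (3 counts) cover counting error only.

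From the deposited counts, edgeR 4.0.16 (limma 3.58.1, R 4.3.3) was run on all 16 libraries with TMM scaling, filterByExpr (at least 3.80 CPM in 4 libraries), 1 coefficient per group and a robust quasi-likelihood F test. Benjamini-Hochberg adjustment was over 483 miRNAs, and changed, rose and fell mean an adjusted p below 0.05. Standard errors came from the log2 fold change and its F statistic. The steps were tested on simulated data. Family members and lists were chosen with earlier results of these data known. All tested members are named, with the 3 miRNAs nearest to miR-344d-3-5p and miR-344e-3p and the 2 most abundant tested members of each list.

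The labels do not say that replicates came from separate cultures or animals, so p-values measure the spread between these libraries, which may be technical. Libraries of the same number deviated together for shRNA with Empty_Vector (correlations of 0.110 to 0.281) and for shRNA_2bp with shRNA (0.149 to 0.192), over 0.1 in every pair, so the numbers were taken to pair these libraries. For shRNA_2bp with Empty_Vector the lowest was 0.0854, and for the comparisons with shRNA_5bp the lowest lay between -0.0596 and -0.0213. Libraries of different numbers were not compared in this way, so the pairing is an assumption. The main tests did not block on replicate number, and a fit that did is among the alternatives. Alternatives were other scalings, DESeq2 1.42.0, no filter, identical names kept once, miR-128-3p left out, 2 groups only, a replicate block and leaving out each library. Leaving out the 2 libraries under 1 M counts was added after the totals were seen.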

Additional observations from a re-analysis of the deposited data

Results flagged for a closer look

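In 2 of 32 groups of 4 libraries, 1 library of a tested name lay far from the other 3, and chance alone flags about 1 in 20 groups. MiR-344c-3p had 25.8 CPM in shRNA_2bp replicate 2, where the nearest other library of the group had 15.6 CPM and the lowest 14.7 CPM. Without that library, its log2 fold change for shRNA_2bp against shRNA was -0.93 (adjusted p = 0.000251, edgeR), and against Empty_Vector -0.21 (adjusted p = 0.395). MiR-344f-3p had 54.4 CPM in Empty_Vector replicate 2, where the nearest other library had 46.3 CPM and the lowest 45.1 CPM. Without that library, its log2 fold change was -1.61 for shRNA_2bp against Empty_Vector (adjusted p = 8.56e-10) and 0.74 for shRNA against Empty_Vector (adjusted p = 4.41e-05).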

How the results depend on the processing

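The number of family names called lay between 4 and 5 for shRNA against Empty_Vector, 2 and 3 for shRNA_2bp against Empty_Vector and 5 and 7 for shRNA_2bp against shRNA over 25 alternatives, and no called fold change changed sign. The fit with a replicate block called 5, 3 and 7 names in these comparisons, and it changed no call other than that of miR-344-3p with shRNA (adjusted p = 0.00196). That name was also called with library totals alone (0.41, adjusted p = 0.0220), with 2 groups only (0.0245), and without shRNA replicate 1 (0.0439) or shRNA_2bp replicate 2 (0.0350). For shRNA_2bp against shRNA it was lost with library totals alone (-0.31, adjusted p = 0.0585) and with 2 groups only (0.0554). The fall of miR-344d-3p with shRNA_2bp against Empty_Vector was lost without Empty_Vector replicate 1, 2 or 3, shRNA replicate 2 or shRNA_2bp replicate 1 (adjusted p 0.0544 to 0.129). The cause was not tested. Library totals alone moved the median of all miRNAs to 0.18 for shRNA, 0.19 for shRNA_2bp and 0.30 for shRNA_5bp against Empty_Vector, and the value of miR-344d-3p with shRNA_5bp ran from 1.29 without a filter to 1.76 with totals alone. Against shRNA, the shRNA_5bp values of miR-344f-3p and miR-344-3p became -0.13 and -0.18 without a filter. Depth limits the names under 10 CPM, miR-344h-3p first, which could not be tested in every fit of 2 groups.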

Other observations

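The other members' nearest profiles were looked up after their values had been seen. MiR-495-3p, a miRNA of the Dlk1-Dio3 cluster on chromosome 12, lay nearest to miR-344f-3p, with a root mean square difference of 0.15 in centred log2 CPM over 16 libraries, against a median of 1.04 over 475 miRNAs. It averaged 2681 CPM with shRNA_5bp, 523 CPM with shRNA_2bp, 2197 CPM with shRNA and 1714 CPM with Empty_Vector. MiR-149-5p lay nearest to miR-344d-3p (0.16, median 0.84), and miR-29a-3p to miR-344c-3p (0.23, median 0.58). MiR-29a-3p averaged 430 CPM with shRNA_5bp, 322 CPM with shRNA_2bp, 644 CPM with shRNA and 427 CPM with Empty_Vector, so it was highest with shRNA, as miR-344c-3p was.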
